A study of Homo sapiens with 4 samples.

Results

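The insulin-like growth factor (IGF) binding proteins IGFBP1 to IGFBP7 and the receptors IGF1R, IGF2R and INSR were followed in HCT116, an established cell line from a human colorectal carcinoma, after exposure to 5-aza-2'-deoxycytidine (5aza). This nucleoside analog replaces cytosine in new DNA and traps the DNA methyltransferases, so that methylation is lost over cell divisions. The members were the 10 genes of these families, 7 binding proteins and 3 receptors, among 17958 genes with a probe set that names 1 gene alone. All 10 were found, by exact symbol in the platform annotation, and each was read at the probe set of highest mean level. Treated cells received 1 µM 5aza from 24 hours after seeding and again 48 hours after the first dose. RNA was taken at 72 hours from 5aza cells (2 arrays) and from vehicle cells of the same line (2 arrays, with the vehicle not named in the labels). The labels do not say whether the samples came from separate cultures, so the spread behind each p-value is that of these samples and could be technical alone. All samples are of this 1 line.

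IGF1 and IGF2 are growth factors that signal through the receptor tyrosine kinase IGF1R, and IGF2 also through INSR, the insulin receptor, whose main ligand is insulin. IGF2R, the cation-independent mannose 6-phosphate receptor, is not a kinase: it takes IGF2 into the cell for degradation and carries lysosomal enzymes to their compartment. The binding proteins are secreted, hold the growth factors in the medium or the matrix, and in most settings limit their access to IGF1R, while proteases that cut them set the growth factors free. Several binding protein genes carry CpG-rich promoters, and methylation of the IGFBP3 and IGFBP7 promoters has been described in colorectal and other carcinomas.

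Levels are log2 RMA values, on which a difference of 1 is a 2-fold difference. Medians over all probe sets were 5.84 on both 5aza arrays, and lower on the vehicle arrays, at 5.73 and 5.72. Over all probe sets Pearson's r was 0.992 between the 5aza arrays, 0.995 between the vehicle arrays, and 0.966 to 0.971 across groups. Probe sets are the points of these correlations and are not independent. The epithelial keratins KRT8 and KRT18 averaged 13.22 and 13.26 in 5aza cells and 13.01 and 12.82 in vehicle cells. E-cadherin (CDH1) averaged 10.17 in 5aza cells and 10.23 in vehicle cells. EPCAM averaged 11.09 in 5aza cells and 11.81 in vehicle cells and fell (limma adjusted p = 0.00495). The intestinal factor CDX2 averaged 8.62 in 5aza cells and 7.92 in vehicle cells and rose (adjusted p = 0.0344), as did KRT18 (adjusted p = 0.0330). CDX1 averaged 5.70 in 5aza cells and 5.71 in vehicle cells and did not pass (adjusted p = 0.947). KRT19 averaged 12.70 in 5aza cells and 12.27 in vehicle cells and did not pass either (adjusted p = 0.0554). Other intestinal markers, VIL1 and CDH17, were low, at 4.60 and 3.93 in 5aza cells and 4.31 and 3.77 in vehicle cells. Without detection calls in the table, low levels cannot be placed above or below background. Within this line, a change in how many cells express a gene cannot be told apart from a change of its RNA per cell.

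A rise or a fall is a limma test at a Benjamini-Hochberg adjusted p under 0.05 over all genes. Of the 10 members, 5 rose and 1 fell. Over all genes 12.4% rose and 15.6% fell, or 28.0% in either direction. The rises were of IGFBP4, IGFBP3, IGFBP6, IGFBP7 and IGF2R, and the fall was of INSR. IGFBP1, IGFBP2, IGFBP5 and IGF1R did not pass the test. At a minimum of 2-fold, 3 members rose, against 5.05% of all genes. For 7 members no 5aza array overlapped the vehicle arrays, close to the 65.8% of all genes for which this held. Without vehicle replicate 1, 3 members rose and 0 fell, and without vehicle replicate 2, 4 rose and 0 fell. The median log2 fold change was 0.33 over the members and -0.07 over all genes.

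**Figure D1:**
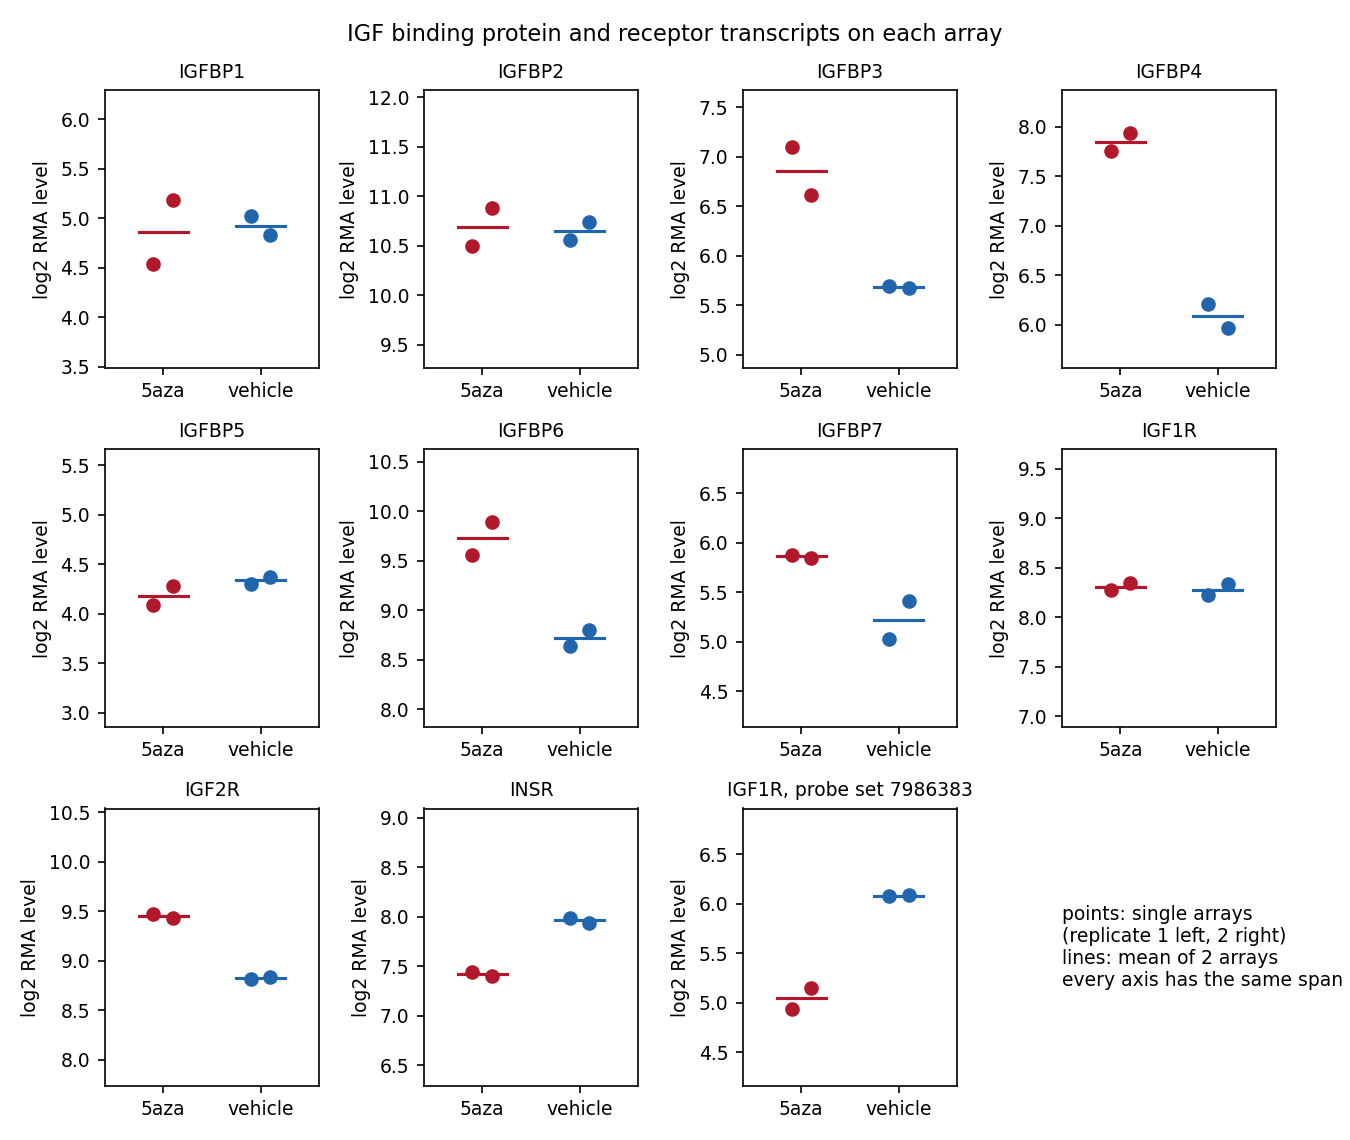
Log2 RMA level of each transcript on every array, with 5aza arrays left of vehicle arrays in each panel; points are single arrays, lines are means of 2 arrays, and each vertical axis spans the same number of log2 units. IGFBP4 lies at 7.75 and 7.94 in 5aza cells and at 6.20 and 5.96 in vehicle cells, and the last panel holds the IGF1R probe set that was not used for the gene.

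IGFBP4 had the largest change. It encodes a secreted protein that holds IGFs away from IGF1R and is cut by the metalloproteinase pappalysin. Its level was 7.75 and 7.94 on the 5aza arrays, against 6.20 and 5.96 on the vehicle arrays. Both 5aza values lay more than 1 log2 unit above both vehicle values. The means were 7.85 ± 0.13 in 5aza cells and 6.08 ± 0.17 in vehicle cells (SD, n = 2 each), a 3.39-fold rise (log2 fold change 1.76, SE 0.14, 95% interval 1.43 to 2.09, limma adjusted p = 0.000237). With any 1 array left out, the log2 fold change stayed between 1.64 and 1.88 and the call was kept.

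IGFBP3 encodes the main carrier of IGFs in blood and is also known as a target gene of p53. It measured 7.09 and 6.61 on the 5aza arrays, against 5.69 and 5.68 on the vehicle arrays. The vehicle arrays were nearly equal, the 5aza arrays differed from each other by more than the vehicle arrays did, and the groups were apart. IGFBP3 rose 2.25-fold (log2 fold change 1.17, SE 0.17, 95% interval 0.77 to 1.58, adjusted p = 0.00331). The log2 fold change was 0.93 without 5aza replicate 1 and 1.41 without 5aza replicate 2, and both passed the test.

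IGFBP6, a binding protein known for its preference for IGF2 over IGF1, measured 9.56 and 9.89 on the 5aza arrays and 8.64 and 8.80 on the vehicle arrays. The lower 5aza array was above the higher vehicle array. IGFBP6 rose 2.01-fold (log2 fold change 1.01, SE 0.15, 95% interval 0.65 to 1.36, adjusted p = 0.00350). IGFBP7, a relative with low affinity for IGFs that is secreted into the matrix, measured 5.88 and 5.85 on the 5aza arrays and 5.03 and 5.42 on the vehicle arrays. Its 5aza arrays were nearly equal, and the wider spread was between the vehicle arrays. IGFBP7 rose 1.56-fold (log2 fold change 0.64, SE 0.15, adjusted p = 0.0216). Without vehicle replicate 1, the lower of the vehicle arrays, its log2 fold change was 0.45 and the test was not passed (adjusted p = 0.185).

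The promoters of the 3 binding protein genes that rose at least 2-fold, and of IGFBP5 as a gene that did not pass the test, are shown for their CpG content, since 5aza acts on cytosine methylation at CpG. Methylation itself was not measured. Each is the RefSeq window of 300 bases, from 250 before to 50 after the gene's start, in build GRCh38.p14, written 5′ to 3′ on the gene's strand, with every CG dinucleotide in capitals. IGFBP4 lies at chr17:40443200-40443499 (+ strand), IGFBP3 at chr7:45921223-45921522 (- strand), IGFBP6 at chr12:53097417-53097716 (+ strand) and IGFBP5 at chr2:216695500-216695799 (- strand).
IGFBP4: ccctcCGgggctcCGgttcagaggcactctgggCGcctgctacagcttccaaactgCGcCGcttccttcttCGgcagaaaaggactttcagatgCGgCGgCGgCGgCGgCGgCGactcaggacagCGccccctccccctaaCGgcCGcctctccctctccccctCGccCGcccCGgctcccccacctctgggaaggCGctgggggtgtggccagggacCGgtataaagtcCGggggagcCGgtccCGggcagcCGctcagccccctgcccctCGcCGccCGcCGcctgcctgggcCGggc
IGFBP3: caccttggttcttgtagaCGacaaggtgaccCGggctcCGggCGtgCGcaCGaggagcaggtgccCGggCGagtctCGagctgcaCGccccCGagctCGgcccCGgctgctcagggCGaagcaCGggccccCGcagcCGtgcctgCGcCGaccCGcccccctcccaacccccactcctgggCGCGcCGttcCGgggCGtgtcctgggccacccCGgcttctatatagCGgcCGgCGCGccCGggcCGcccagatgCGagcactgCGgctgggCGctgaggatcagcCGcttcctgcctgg
IGFBP6: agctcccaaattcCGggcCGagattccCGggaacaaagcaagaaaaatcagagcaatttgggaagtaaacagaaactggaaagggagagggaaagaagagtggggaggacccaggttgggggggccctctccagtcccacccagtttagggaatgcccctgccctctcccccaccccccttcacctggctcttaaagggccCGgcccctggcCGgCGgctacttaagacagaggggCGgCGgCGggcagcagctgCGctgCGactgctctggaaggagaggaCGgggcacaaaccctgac
IGFBP5: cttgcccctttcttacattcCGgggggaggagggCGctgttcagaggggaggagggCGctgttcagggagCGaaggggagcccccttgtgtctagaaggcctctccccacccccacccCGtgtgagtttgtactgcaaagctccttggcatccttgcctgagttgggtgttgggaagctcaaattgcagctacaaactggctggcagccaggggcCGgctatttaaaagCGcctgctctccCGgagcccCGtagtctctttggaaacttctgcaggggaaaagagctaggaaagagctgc

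The 3 genes that rose at least 2-fold did not share a CpG-dense window. IGFBP3 held 36 CG dinucleotides and IGFBP4 held 30, against 12 for IGFBP6 and 9 for IGFBP5. The median over all 35116 RefSeq windows was 14. At least 36 were found in 12.7% of windows, at least 30 in 22.4%, at least 12 in 53.1% and at least 9 in 58.4%. The observed-over-expected CpG ratio was 0.87 for IGFBP3, 0.75 for IGFBP4, 0.42 for IGFBP6 and 0.35 for IGFBP5. The receptor genes, which did not move together, had dense windows too: IGF1R held 55, INSR 36 and IGF2R 41. Of the 3 windows listed for IGFBP2, 1 held 28 and the others held 8 and 6. The letters TATAAA, searched on both strands, were in the IGFBP4 window alone among the 10 windows of 8 members, starting at position -29 from the start, and in 11.5% of all windows. IGFBP1 and IGFBP7 were not matched in the promoter table. These are descriptions of sequence, and no relation between them and the changes was tested.

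IGFBP1, IGFBP2 and IGFBP5 did not pass the test. IGFBP1, a binding protein of liver and decidua that insulin represses, measured 4.54 and 5.18 on the 5aza arrays and 5.02 and 4.83 on the vehicle arrays. The 5aza arrays lay on either side of the vehicle arrays, and the 95% interval of the log2 fold change ran from -0.57 to 0.44. IGFBP2, which carries an integrin-binding motif, measured 10.50 and 10.88 on the 5aza arrays and 10.56 and 10.74 on the vehicle arrays. These groups overlapped too, with an interval from -0.34 to 0.42. IGFBP5, a matrix-bound member, measured 4.09 and 4.28 on the 5aza arrays and 4.31 and 4.37 on the vehicle arrays. Both 5aza values were the lower ones, but the log2 fold change was only -0.15 (interval -0.45 to 0.14, adjusted p = 0.407). IGFBP1 and IGFBP5 are among the dim genes that the filter on low levels removes. For all 3 genes the interval ends below a 2-fold rise.

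**Figure D2:**
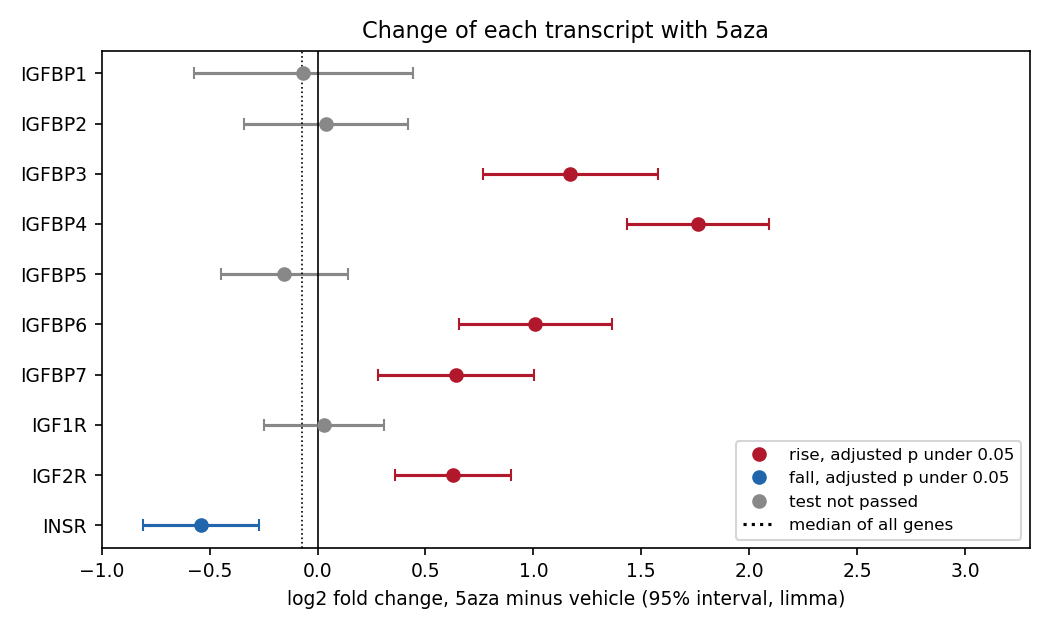
Log2 fold change of each transcript, 5aza minus vehicle, as a point with its 95% limma interval; colours mark the test's outcome, the solid line is 0 and the dotted line is the median of all genes, -0.07. The intervals of IGFBP4 (1.43 to 2.09) and IGFBP1 (-0.57 to 0.44) do not meet, and INSR lies below 0.

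Among the receptors, IGF2R rose. It measured 9.47 and 9.43 on the 5aza arrays and 8.81 and 8.84 on the vehicle arrays. Arrays of the same group were nearly equal and the groups were clearly apart, at 9.45 ± 0.03 in 5aza cells and 8.82 ± 0.02 in vehicle cells (SD, n = 2 each). The rise was 1.54-fold (log2 fold change 0.63, SE 0.11, 95% interval 0.36 to 0.89, limma adjusted p = 0.00748). The test was not passed without vehicle replicate 1 (adjusted p = 0.0755) or without vehicle replicate 2 (adjusted p = 0.0619), although the log2 fold changes were 0.61 and 0.64.

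INSR went the other way, at 7.45 and 7.40 on the 5aza arrays and 7.99 and 7.94 on the vehicle arrays. All 4 arrays were close to their group mean and the groups were apart. INSR was 1.45-fold lower in 5aza cells (log2 fold change -0.54, SE 0.11, 95% interval -0.81 to -0.27, adjusted p = 0.0137). The INSR call was lost without vehicle replicate 1 and without vehicle replicate 2, at log2 fold changes of -0.51 and -0.57. It was kept without 5aza replicate 1 and without 5aza replicate 2, at -0.56 and -0.52. A fit with a lone vehicle array takes its spread from the 5aza arrays alone, and a fit with a lone 5aza array from the vehicle arrays alone.

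IGF1R was measured by a pair of probe sets that disagreed. Probe set 7986359, which represents the gene because its mean is higher, measured 8.28 and 8.34 on the 5aza arrays and 8.23 and 8.33 on the vehicle arrays. These groups overlapped, and the log2 fold change was 0.03 (95% interval -0.25 to 0.31, adjusted p = 0.884). Probe set 7986383 measured 4.94 and 5.15 on the 5aza arrays and 6.08 and 6.09 on the vehicle arrays. It was 2.05-fold lower in 5aza cells in a fit of all probe sets (log2 fold change -1.04, SE 0.13, interval -1.34 to -0.73, adjusted p = 0.00185). The intervals of the probe sets do not meet. The annotation lists the same transcripts for both and gives no positions within the gene, so a direction for IGF1R depends on which probe set is read. IGF1R was the only member with more than 1 probe set.

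**Figure D3:**
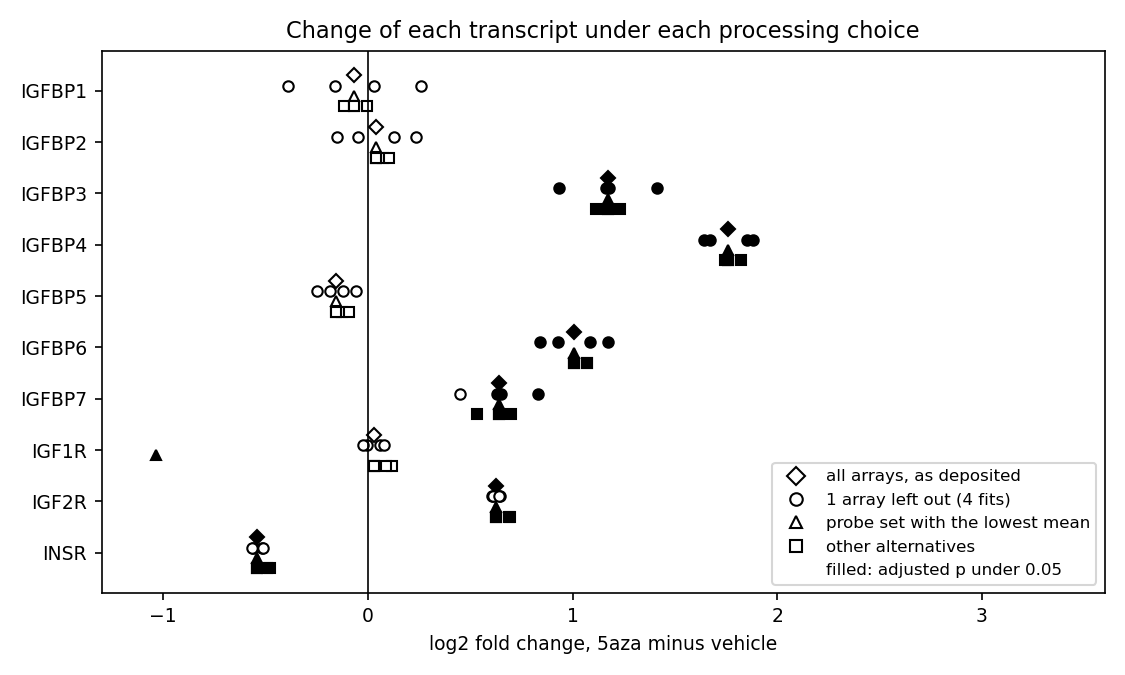
Log2 fold change of each transcript, 5aza minus vehicle, with all arrays as deposited (diamonds), with 1 array left out (circles), at the probe set with the lowest mean (triangles) and under the other alternatives (squares); filled symbols passed the test. IGFBP3, IGFBP4 and IGFBP6 are filled throughout, whereas IGF1R lies at 0.03 for one probe set and at -1.04 for the other.

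Genes beside the called members were read from the RefSeq gene order. IGFBP3 and IGFBP1 are immediate neighbours on chromosome 7. IGFBP3 rose 2.25-fold while IGFBP1 did not pass the test, and the difference between these changes was not tested. TNS4, a focal adhesion protein gene next to IGFBP4 on chromosome 17, measured 10.54 and 11.20 on the 5aza arrays and 9.02 and 9.32 on the vehicle arrays. TNS4 rose 3.24-fold (log2 fold change 1.70, SE 0.23, adjusted p = 0.00235), so both genes of this pair rose. The genes on both sides of IGFBP6 did not pass the test. SPRYD3 had a log2 fold change of -0.39 (adjusted p = 0.0550), and SOAT2, a cholesterol acyltransferase, of 0.11 (adjusted p = 0.573). MAS1, next to IGF2R, was at 2.67 in 5aza cells and 2.86 in vehicle cells and did not pass (adjusted p = 0.288). The other immediate neighbours had no probe set of their own and were not analysed here.

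The profile over the 4 arrays most like that of IGFBP4, by Euclidean distance between log2 values centred on each gene's mean, was that of LGALS4, a galectin of intestinal epithelium (distance 0.02). SLC5A5, the sodium-iodide symporter (0.05), and PPP1R14A, a phosphatase inhibitor (0.09), came next. Their log2 fold changes were 1.76, 1.72 and 1.77, and with only 4 arrays the likeness is mostly that of the size of the change.

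Lists of the surrounding IGF axis were read in the same fit. Of 65 genes tested, 8 rose and 7 fell, beside the 12.4% of all genes that rose and the 15.6% that fell. The same shares are the background of the counts of each list below. The median log2 fold change of the 65 genes was 0.04. Leaving out vehicle replicate 1 gave 3 risen and 4 fallen genes, and leaving out vehicle replicate 2 gave 6 and 3. CCN1, CCN2, GRB14 and ENPP1, described next, passed the test under all 10 alternatives. STC1 and MMP7 passed under all but the filter on dim genes, which removed them. CRIM1, IGFBPL1, ITGA5, GRB10, CTSL, TMEM219, RPTOR, GAA and NAGPA did not pass without at least 1 of the vehicle arrays, with the lowest such adjusted p at 0.0531 (ITGA5) and the highest at 0.297 (NAGPA). TMEM219 and NAGPA also lost their calls without 5aza replicate 1, and NAGPA without 5aza replicate 2 (adjusted p = 0.0741, 0.0676 and 0.0515). With housekeeping centring TMEM219, GAA and NAGPA did not pass (adjusted p = 0.0872, 0.0545 and 0.105), and NAGPA did not pass after repeated quantile normalization (adjusted p = 0.0714). IGF2 and INS have no probe set that names them alone and were not analysed here. IGF1 measured 3.03 and 3.21 on the 5aza arrays and 3.28 and 3.29 on the vehicle arrays and did not pass (adjusted p = 0.374). IGFALS, the subunit that joins IGF and IGFBP3 in the circulating complex, did not pass either (log2 fold change -0.15, adjusted p = 0.449).

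Of 11 binding protein proteases and their inhibitors, 1 rose and 1 fell. STC1, a stanniocalcin known to inhibit pappalysin, measured 5.51 and 5.47 on the 5aza arrays and 3.52 and 3.47 on the vehicle arrays. Its groups were far apart and it rose 3.99-fold (SE 0.11, log2, adjusted p = 5.47e-05). STC2, the other stanniocalcin, measured 7.57 and 7.43 on the 5aza arrays and 7.84 and 7.61 on the vehicle arrays and did not pass (adjusted p = 0.265). MMP7, the matrix metalloproteinase matrilysin, which can cut binding proteins, was 3.69-fold lower, at 4.48 and 4.35 on the 5aza arrays and 6.39 and 6.21 on the vehicle arrays (SE 0.13, log2, adjusted p = 0.000124). PAPPA has no probe set of its own. Its relative PAPPA2 had a log2 fold change of -0.02 and did not pass. HTRA3, also on this list, was higher at an unadjusted limma p under 0.05 but not after adjustment (log2 fold change 0.38, adjusted p = 0.0658).

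The IGFBP-domain relatives, which share the amino-terminal fold of the binding proteins, included 4 rises and 0 falls among 10 genes. At an unadjusted limma p under 0.05, KAZALD1 was also lower (adjusted p = 0.0635). The largest rise was of CCN2, connective tissue growth factor, at 10.56 and 10.57 on the 5aza arrays and 6.50 and 6.36 on the vehicle arrays. It rose 17.5-fold (SE 0.12, log2, adjusted p = 3.98e-06). CCN1, a related matricellular protein, rose 4.60-fold (SE 0.12, log2). IGFBPL1 and CRIM1 rose 1.45-fold and 1.42-fold. The list's median log2 fold change was 0.23.

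**Figure D4:**
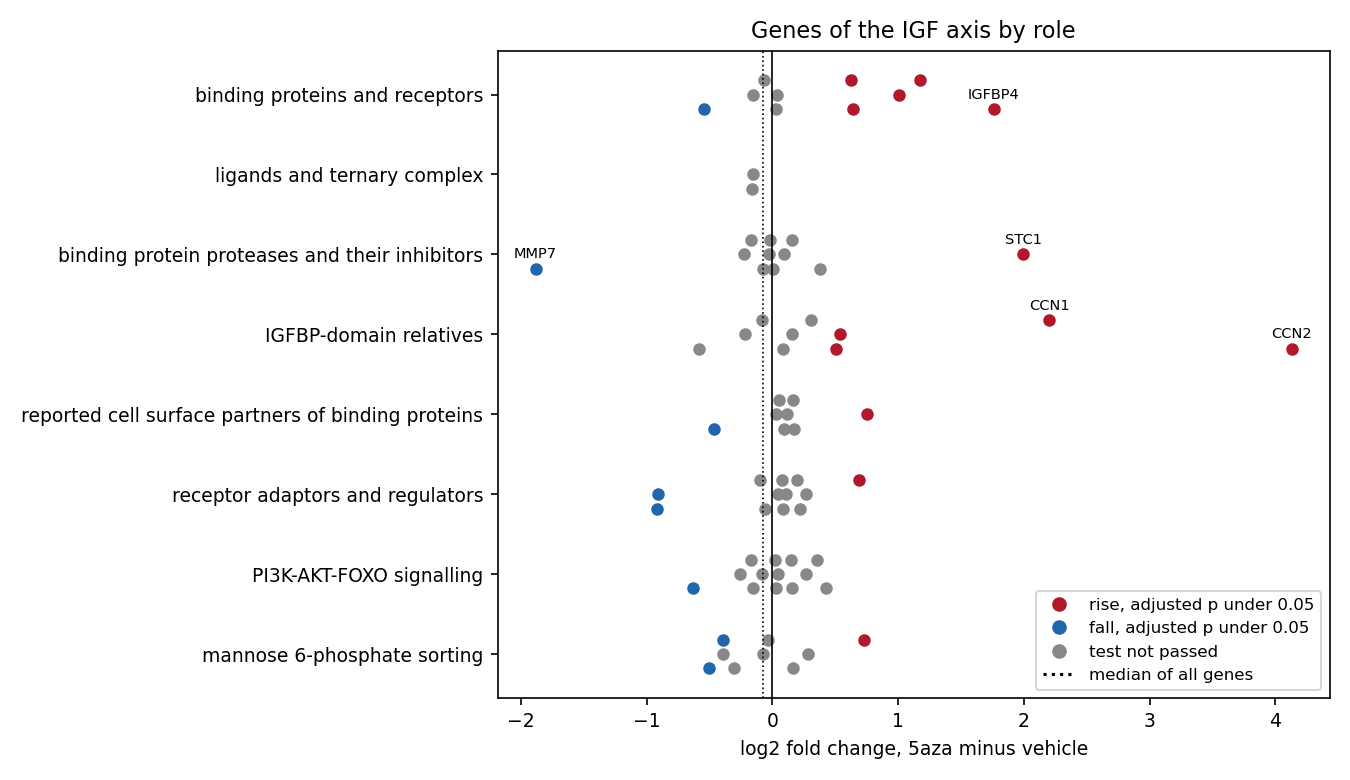
Log2 fold change, 5aza minus vehicle, of each tested gene by its role in the IGF axis; each point is a gene, colours mark the test's outcome, the dotted line is the median of all genes, and called genes beyond 1.5 in size are named. CCN2 stands farthest to the right at 4.13 and MMP7 farthest to the left at -1.88, while the PI3K-AKT-FOXO genes lie between -0.63 (RPTOR, called) and 0.43.

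Of 8 reported cell surface partners of binding proteins, ITGA5, the fibronectin receptor subunit that IGFBP1 binds, rose 1.69-fold (adjusted p = 0.00559). TMEM219, a proposed receptor of IGFBP3, was 1.38-fold lower (adjusted p = 0.0356). Of 12 receptor adaptors and regulators, 1 rose and 2 fell. GRB10, an adaptor that restrains IGF1R and INSR, measured 8.70 and 8.78 on the 5aza arrays and 8.01 and 8.08 on the vehicle arrays, a 1.62-fold rise (adjusted p = 0.00566). GRB14, its relative that inhibits INSR, was 1.88-fold lower (adjusted p = 0.00368). ENPP1, a membrane ectoenzyme reported to inhibit INSR, was 1.89-fold lower (adjusted p = 0.00309). The docking proteins IRS1 and IRS2 did not pass, with log2 fold changes of 0.04 and 0.20 (adjusted p = 0.862 and 0.268).

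Of 13 PI3K-AKT-FOXO signalling genes, 0 rose and 1 fell in limma's test. PIK3R3 and PDPK1 were higher at an unadjusted limma p under 0.05 but not after adjustment (adjusted p = 0.0710 and 0.0673). The fall was of RPTOR, a subunit of mTOR complex 1 (log2 fold change -0.63, adjusted p = 0.0213). Of 9 genes of mannose 6-phosphate sorting, the pathway that IGF2R serves, 1 rose and 2 fell. CTSL, a lysosomal protease, rose 1.66-fold (adjusted p = 0.00748). GAA, acid alpha-glucosidase, and NAGPA, which uncovers the mannose 6-phosphate tag, were 1.41-fold and 1.31-fold lower. M6PR, the smaller mannose 6-phosphate receptor, measured 11.60 and 11.22 on the 5aza arrays and 11.85 and 11.76 on the vehicle arrays and did not pass (adjusted p = 0.104). Without 5aza replicate 1, the higher of the 5aza arrays, M6PR was called lower (log2 fold change -0.58, adjusted p = 0.0156), as it was with a variance trend (adjusted p = 0.0497).

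Binding proteins are also abundant in fibroblasts, endothelium and liver, so genes known as markers of such cells were read beside them. All samples are of the HCT116 line, so these values are read as levels in HCT116 cells. Of 25 fibroblast, endothelial, leukocyte and hepatocyte markers, 7 rose and 2 fell, beside the 12.4% of all genes that rose and the 15.6% that fell. Their mean level was 4.67 and 4.64 on the 5aza arrays and 4.25 and 4.33 on the vehicle arrays. The rises were of the fibroblast markers THY1, COL1A1 and PDGFRA (log2 fold changes 3.15, 0.63 and 0.53), the endothelial marker PECAM1 (1.79) and the leukocyte markers CD3D, CD14 and CD3E (1.79, 1.18 and 0.92). The falls were of the endothelial receptor KDR (-0.55) and the hepatocyte marker TTR (-0.55). The fibroblast proteoglycan DCN was at 3.05 in 5aza cells and 2.80 in vehicle cells, the leukocyte antigen PTPRC at 3.12 in 5aza cells and 3.02 in vehicle cells, and ALB at 3.69 in both. None of these 3 genes passed the test. No marker was listed at 0, as RMA gives none. No relation of these markers to the changes of the binding proteins was tested.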

How the data were processed

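Transcripts were measured on 4 Affymetrix arrays, 2 per group. The authors deposited log2 values for each probe set on each array. Expression Console of Affymetrix and RMA were used (background correction, quantile normalization, summary per probe set), per the submitters' processing notes. The genome build is not given in the sources used here, nor is any software version. Quantile normalization hides changes of total RNA per cell, and RMA folds near background are usually compressed. Of 33297 probe sets, 19181 carry 1 gene symbol, 2055 several (not named here), and 12061 are not listed in the platform annotation. Each of 17958 genes was read at its probe set with the highest mean, which mattered for 895.

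The comparison of 5aza with vehicle used lmFit and eBayes of limma 3.58.1 (R 4.3.3), with no covariate and no filter, two-sided, adjusted over all genes. The code was tested on simulated data. With 2 arrays against 2, the smallest exact permutation p is 0.333. The calls therefore depend on the variance that limma pools over genes, and the number of arrays limits the precision. Alternatives were quantile normalization again, housekeeping centring, a filter on dim genes, the lowest probe set, a variance trend, the replicate number as a block, and leaving out each array. Promoters and gene order come from RefSeq, assembly GRCh38.p14. Members and lists were chosen with earlier results of these data known. Genes named beside the members are, per list, up to 4 called in each direction by p-value plus 8 fixed genes, the neighbours of called members, and the 3 profiles nearest to IGFBP4. Others (IGFALS, PAPPA2, HTRA3, KAZALD1, PIK3R3, PDPK1 and markers) were named after their values were seen.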

Additional observations from a re-analysis of the deposited data

How the results depend on the processing

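IGFBP3, IGFBP4 and IGFBP6 kept their direction and their call under the 10 alternatives. With 1 array left out, the log2 fold change of IGFBP7 ran from 0.45 to 0.83, of IGF2R from 0.61 to 0.64 and of INSR from -0.57 to -0.51, and the calls lost are given with each gene. Values of IGFBP1, IGFBP2 and IGF1R, which were not called, crossed 0 in these fits. IGFBP1 ran from -0.39 to 0.26, IGFBP2 from -0.15 to 0.23 and IGF1R from -0.022 to 0.080. IGFBP5, also uncalled, stayed below 0, from -0.25 to -0.060. IRS1, an uncalled adaptor gene, crossed 0 too, from -0.084 to 0.17. Counts with 1 array left out ran from 3 to 5 rises and 0 to 1 falls among the members, 3 to 11 rises and 3 to 7 falls in the IGF axis lists, and 1267 to 2530 rises and 1196 to 3401 falls over all genes. The lowest probe set gave 2 member falls, with IGF1R at -1.04. Housekeeping centring gave 4 axis falls, against 7 as deposited, and moved the median of all genes to -0.01. The filter on dim genes removed IGFBP1, IGFBP5, STC1, MMP7 and IGF1, which have no value there. Arrays with the same number correlated at 0.27 in their deviations from the group means. The labels give no shared origin, and whether arrays with the same number share a culture or a batch cannot be told from the labels. With the replicate block 2805 genes rose and 3834 fell, no member's call changed, and M6PR was called lower (adjusted p = 0.0363). Whether dim members lie above background was not determined.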
